A study of Mus musculus with 12 samples.

Results

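The genes described here are 9 parts of the complement system: the 3 chains of C1q (C1qa, C1qb and C1qc), the components C2, C3, C4b and Cfb, and the anaphylatoxin receptors C3ar1 and C5ar1. They were chosen by name, with earlier results of these data known, as every probe of the array whose platform or current symbol is 1 of the 9. This found 8 probes of 25697, 1 each for 8 genes. C3 had no probe under its name, and its level was not analysed here. The C3ar1 probe was detected on no array, so that 7 of the 9 genes were tested, among 10541 named genes in all.

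The samples were lungs of female C57BL/6N mice housed free of specific pathogens. Exposed to cigarette smoke were 3 mice sampled at 4 months of age and 3 at 6 months, and set against them were 3 control mice at 4 months and 3 at 6 months. Each lung RNA was labelled with biotin and read on 1 Illumina bead array, which gives a brightness for each probe. The length of the exposure is not given in the sources used here, and precision is limited by having 3 arrays a group. Levels are normalized log2 intensities. A change is a log2 fold change, smoke minus control unless other groups are named, and a gene passed where limma's p-value, adjusted by Benjamini-Hochberg over all 15490 probes kept, was below 0.05. A probe counts as detected on an array where its detection p-value was below 0.05.

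Complement is a cascade of blood and tissue proteins that tags microbes, debris and dying cells. C1q recognises targets and starts the classical pathway, in which C4 and C2 form the enzyme that splits C3. Factor B (Cfb) does the work of C2 in the alternative pathway. The fragments C3a and C5a that are released act on the receptors C3AR1 and C5AR1 of myeloid cells. The liver makes most complement proteins of the blood, while C1q comes mainly from macrophages and related cells. Of 6 liver genes looked up in these lungs, Alb, Apoh and Fgb were detected on no array, Apoa1 on 1 and Ttr on 2 of the 12. The sixth, Ahsg, was detected by 1 of its probes on 6 arrays, at 4 to 27 raw intensity units over all 12, and did not pass at either age. The 8 tested markers of lung epithelium, surfactant genes among them, had a summed level that was higher with smoke at both ages. It was 101527 to 106523 normalized intensity units with smoke and 99243 to 99603 in controls at 4 months. At 6 months it was 97608 to 100508 with smoke and 92017 to 94248 in controls. The brightest genes weigh most in such a sum. By gene, the median change of the 8 was 0.11 at 4 months and 0.08 at 6 months. Over all genes it was -0.03 and -0.02. At each age 6 of the 8 had a change above 0, and none of the 8 passed.

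Some arrays stood apart from their group, 4-month controls among them. The summed level of 8 neutrophil genes was 5572 to 14990 normalized intensity units on the smoke arrays at 4 months. On the smoke arrays at 6 months it ranged widely, between 3800 and 20823. In controls it was 8580 to 47934 at 4 months and 8642 to 15860 at 6 months. The 47934 was that of control replicate 1 of 4 months, the highest of all arrays. Of these 8 genes 0 had a change above 0 at 4 months (median -1.12) and 2 at 6 months (median -0.65), and none passed at either age. Without control replicate 3 of that age, 372 genes passed between smoke and control at 4 months, against 174 with all arrays, and 577 between the ages in controls, against 6. The C1q genes passed at 4 months with control replicate 1 or control replicate 3 left out, each in its own fit. C1qa then had limma adjusted p-values of 0.013 and 0.03. Without control replicate 2, the lowest of the 4-month controls for C1q, C1qa did not pass (limma adjusted p = 0.0602).

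All 3 C1q genes were higher in smoke-exposed lungs at both ages, and Cfb was higher at 6 months. C2 and C4b did not pass at either age, and neither did C5ar1. At 4 months 3 of the 7 passed, all upward, where 1.28% of all genes were higher, and at 6 months 4 of the 7 did so, where 3.35% were. The median change of the 7 was 0.44 at 4 months and 1.34 at 6 months, against -0.03 and -0.02 over all genes. Of the 7, no gene was lower at either age. The genes were chosen with earlier results of these data known, so these counts are descriptions. The C1q chains, 3 of the calls at each age, varied together across the arrays.

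**Figure D1:**
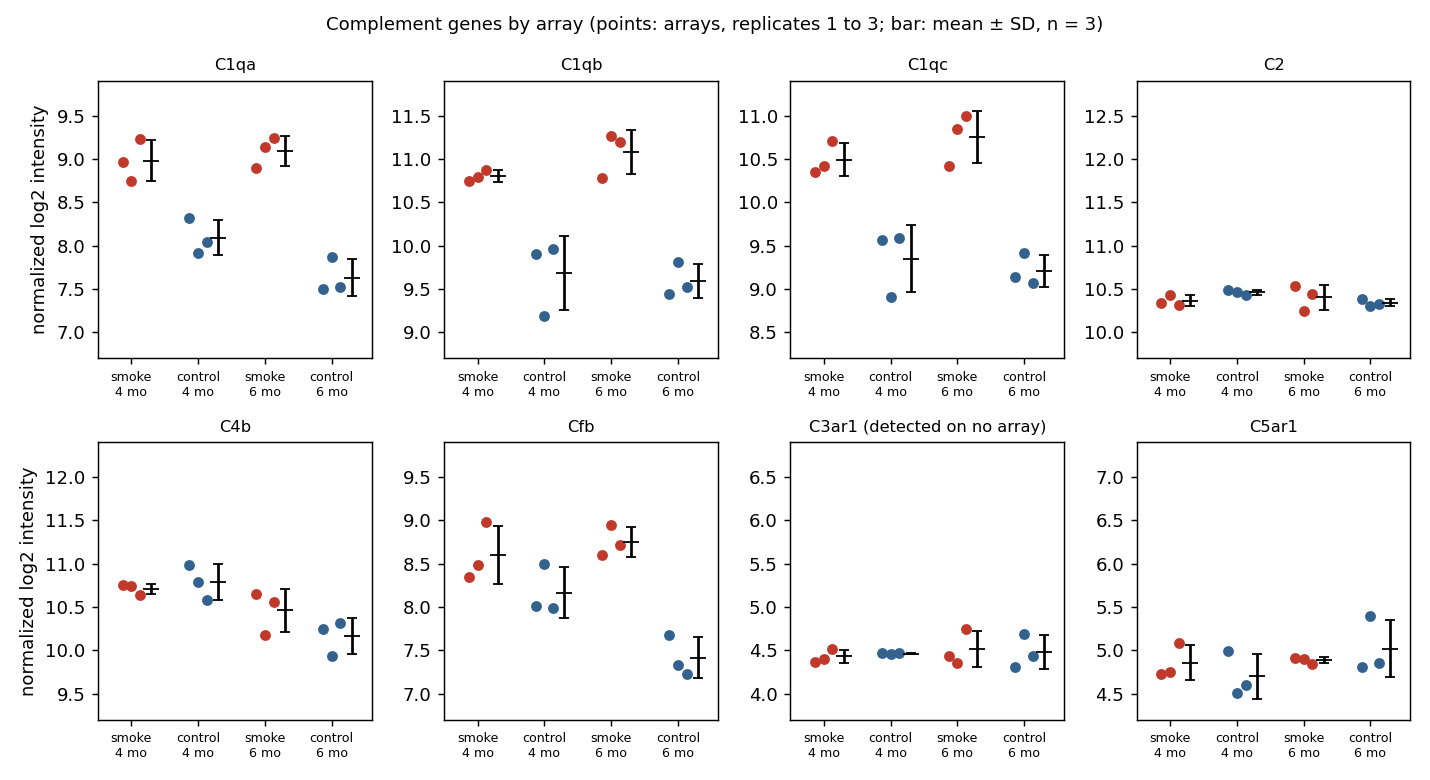
Normalized log2 intensity of the 8 complement genes with a probe, 1 panel per gene, with a point for each array and the mean ± SD of each group (n = 3); all panels span the same number of log2 units. The red smoke points of C1qa, C1qb and C1qc lie above the blue control points at both ages, and those of Cfb at 6 months alone. C3ar1 was detected on no array. Each panel's axis starts near that gene's own lowest value, so heights cannot be compared between panels.

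The C1q chains come from genes that lie next to each other on chromosome 4, in the order C1qb, C1qc and C1qa with no other protein-coding gene between them. The stretches before the starts of C1qb and C1qc are shown because these neighbours had nearly the same change. No sequence was matched for C1qa, the third neighbour, and 5 of the 9 genes had 1. They are the 250 bases before each start as RefSeq places it on GRCm38.p6, at chr4:136886201-136886450 for C1qb and chr4:136892915-136893164 for C1qc, both on the minus strand and written 5′ to 3′. Capitals mark the letters GAGGAA on either strand, the core that ETS factors of the PU.1 type bind.
C1qb: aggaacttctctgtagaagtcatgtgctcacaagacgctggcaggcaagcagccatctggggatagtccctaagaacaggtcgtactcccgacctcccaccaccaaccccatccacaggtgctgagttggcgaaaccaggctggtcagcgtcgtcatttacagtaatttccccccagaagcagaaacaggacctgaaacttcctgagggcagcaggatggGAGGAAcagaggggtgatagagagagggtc
C1qc: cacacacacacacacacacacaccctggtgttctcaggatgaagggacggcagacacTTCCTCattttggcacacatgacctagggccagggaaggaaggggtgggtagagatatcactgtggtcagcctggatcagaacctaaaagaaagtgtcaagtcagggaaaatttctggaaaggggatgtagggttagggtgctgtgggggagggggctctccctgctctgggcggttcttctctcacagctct
Each held GAGGAA 1 time, C1qb at position -30 on the gene's own strand and C1qc at -193 on the other strand, counted from the start. The letters stand in 23.3% of all 32851 such stretches in the RefSeq table. Neither held TGANTCA, the AP-1 type site found in 6.75% of stretches, or GAAANNGAA, an IRF type site found in 7.13%. The search covered both strands, and none of the marked matches overlap. The stretches of C3, C3ar1 and C5ar1, the other genes with a sequence, did not hold GAGGAA. Matches of this kind are descriptions of the letters and no sites of binding.

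C1qa, the A chain of C1q, was at 8.96, 8.75 and 9.23 in the lungs exposed to smoke at 4 months, against 8.31, 7.92 and 8.04 in controls of that age. At 6 months it was at 8.90, 9.14 and 9.24 in smoke-exposed lungs, against 7.50, 7.88 and 7.52 in controls. Every smoke array lay above every control array of its age. The change was 0.89 at 4 months (SE 0.16, limma adjusted p = 0.0126), or 1.85-fold, and 1.46 at 6 months (SE 0.16, limma adjusted p = 0.000224), or 2.75-fold.

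C1qb, the B chain, was at 10.74, 10.79 and 10.88 with smoke at 4 months, against 9.90, 9.19 and 9.96 in controls. At 6 months the smoke arrays read 10.78, 11.26 and 11.20 and the control arrays 9.44, 9.81 and 9.53. The 4-month smoke arrays lay close together (SD 0.07), while 1 control array, replicate 2, was well below the others (group SD 0.43). The groups did not overlap at either age. C1qb changed by 1.12 at 4 months (SE 0.19, limma adjusted p = 0.0109), or 2.17-fold, and by 1.49 at 6 months (SE 0.19, limma adjusted p = 0.000795), or 2.80-fold.

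C1qc, the C chain, which pairs with itself in the assembled protein while the A and B chains pair with each other, was at 10.35, 10.42 and 10.71 with smoke at 4 months, against 9.56, 8.91 and 9.59 in controls. At 6 months it was at 10.42, 10.84 and 10.99 with smoke, against 9.14, 9.42 and 9.07 in controls. Control replicate 2 at 4 months again lay below the rest of its group, and no smoke array fell into the control range. Its change was 1.14 at 4 months (SE 0.20, limma adjusted p = 0.0109), or 2.21-fold, and 1.54 at 6 months (SE 0.20, limma adjusted p = 0.000718), or 2.91-fold. Ranked among all 10541 genes by their change at 6 months, C1qc stood at place 61, C1qb at 65 and C1qa at 68.

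**Figure D2:**
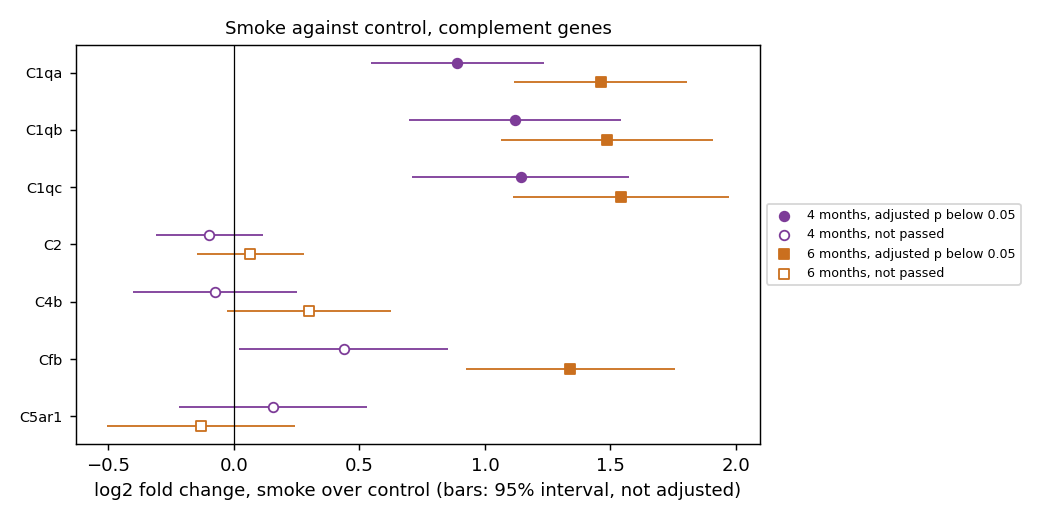
Log2 fold change, smoke over control, of the 7 tested complement genes at 4 months (circles) and 6 months (squares), with 95% intervals from limma that are not adjusted for the number of genes; filled symbols passed. The C1q genes lie between 0.89 and 1.54, C2 and C4b between -0.10 and 0.30, and Cfb at 0.44 and 1.34.

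At 4 months the calls of the C1q genes depended on which arrays were in the fit. Without smoke replicate 3 of that age none of the 3 genes passed in limma (adjusted p = 0.0785 for C1qa, 0.0611 for C1qb and 0.0704 for C1qc), although the changes were still 0.77, 1.08 and 1.04. With all arrays and an unadjusted p below 0.05, the count was 4 of the 7 genes at each age, against 14.8% of all genes at 4 months and 17.4% at 6 months. C1qa also missed the threshold without smoke replicate 1 (adjusted p = 0.0521) and without control replicate 2 (adjusted p = 0.0602). At 6 months all 4 calls held without any 1 of the 12 arrays, with limma adjusted p-values of at most 0.0105.

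**Figure D3:**
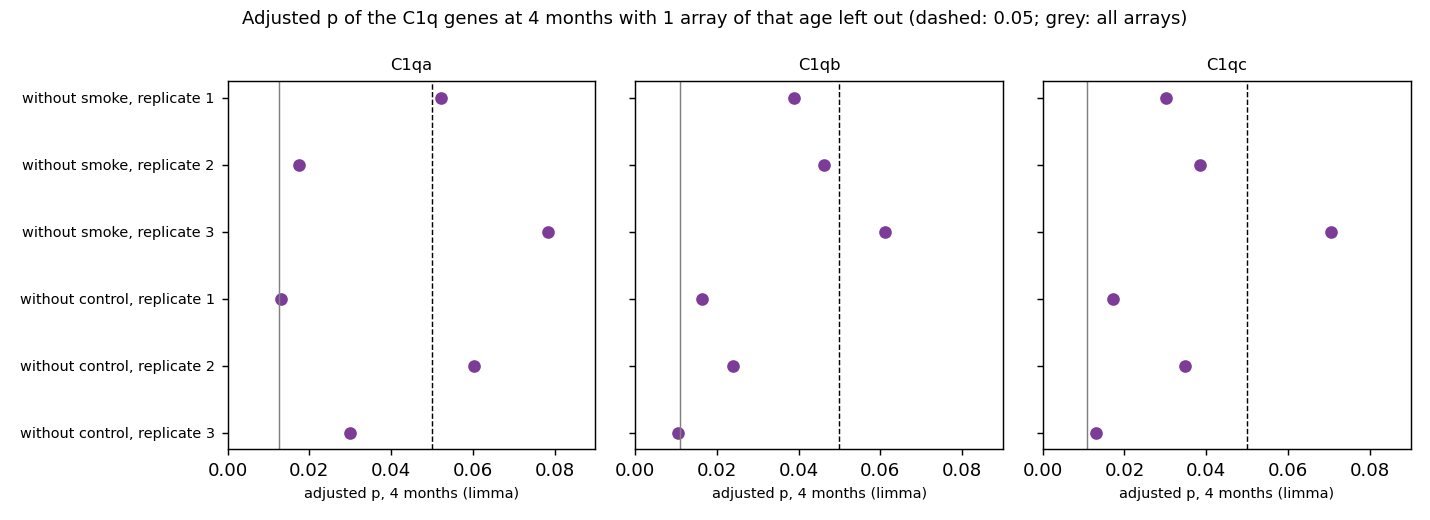
Limma adjusted p of C1qa, C1qb and C1qc at 4 months, from fits that each leave out 1 of the 6 arrays of that age; the dashed line is 0.05 and the grey line the value with all arrays. The points without smoke replicate 3 lie right of 0.05 in all 3 panels, and those of C1qa also without smoke replicate 1 and control replicate 2.

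Several genes of macrophages were higher in the same lungs. Of 14 markers of monocytes and macrophages 10 were tested. At each age 5 of the 10 were higher, against 1.28% of all genes at 4 months and 3.35% at 6 months. Among them were Trem2 (2.58 at 4 months and 2.79 at 6 months), Marco (1.58 and 2.05) and Adgre1 (1.17 and 1.17). The median change of the 10 was 0.65 at 4 months and 0.70 at 6 months, against -0.03 and -0.02 over all genes. Their summed level was 5894 to 7062 normalized intensity units in smoke-exposed lungs and 2899 to 3761 in controls at 4 months, and 5126 to 6531 with smoke and 2668 to 3013 in controls at 6 months. Ccr2, a receptor of recruited monocytes, was detected on no array, and Csf1r, Cd68 and Ly6c2 had no probe under those names. The part of these cells in the change of C1q was not tested. In whole lung, more cells of a type and more RNA per cell cannot be told apart.

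Within the groups the C1q genes were positively correlated, and so were C1qa and C5ar1. After each group's mean was taken off, Pearson's r over the 12 arrays was 0.94 between C1qb and C1qc (Spearman's rho 0.81, r = 0.85 without the 2 arrays farthest from the median), 0.79 between C1qa and C1qc (rho 0.69) and 0.68 between C1qa and C1qb (rho 0.66). C1qa had r = 0.82 with C5ar1 (rho 0.62, r = 0.68 without the 2 farthest arrays), though C5ar1 was detected on 4 of the 12 arrays. That r was higher than with either other C1q chain, but the rho was lower than with both. Without the 2 farthest arrays C1qa had r = 0.75 with C1qc and 0.67 with C1qb. C5ar1 had r = 0.54 with C1qb and 0.58 with C1qc. Against Cfb r was 0.09 for C1qa, -0.30 for C1qb and -0.08 for C1qc. C2 and C4b, both on chromosome 17, had r = 0.77 between them. All these values come from the same 12 arrays and RNAs, and are given as descriptions.

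The 5 genes of 10534 whose group-centred values were most like the mean of the 3 C1q genes were Fcrl1 (r = 0.98, rho 0.94), a receptor-like protein of B cells, Ccl19 (0.97, rho 0.99), a chemokine of lymphoid tissue, Serpind1 (0.97, rho 0.97), which encodes heparin cofactor II, the cell division gene Cdca3 (0.96, rho 0.94) and Ifi30 (0.96, rho 0.87), a thiol reductase of antigen-processing compartments. Without the 2 arrays farthest from the median, r was 0.96, 0.97, 0.93, 0.92 and 0.91 in that order. These 5 were picked as the highest of all genes, so that high values were bound to appear. Their changes with smoke differed from each other. Fcrl1 was at -0.07 at 4 months and -0.06 at 6 months and did not pass. Serpind1 rose by 1.08 at 4 months and 1.36 at 6 months (limma adjusted p = 0.00871 and 0.000862). Ccl19 and Cdca3 passed at 6 months alone, at 1.35 and 0.98 (limma adjusted p = 0.0143 and 0.0253). Ifi30 was at 0.49 and 0.63 and did not pass.

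Cfb, the protease that forms the alternative pathway's convertase, passed at 6 months and not at 4 months. It was at 8.35, 8.49 and 8.98 with smoke at 4 months, against 8.01, 8.50 and 7.99 in controls, and the groups overlapped. At 6 months it was at 8.60, 8.94 and 8.72 with smoke, against 7.68, 7.33 and 7.23 in controls, and all 3 smoke arrays lay above all 3 controls. The change was 0.44 at 4 months (SE 0.19, limma adjusted p = 0.331) and 1.34 at 6 months (SE 0.19, limma adjusted p = 0.00145), or 2.53-fold.

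Whether the response to smoke differed between the ages was tested directly. Smoke-exposed lungs averaged 8.76 ± 0.17 for Cfb at 6 months and 8.61 ± 0.34 at 4 months, and control lungs 7.41 ± 0.24 at 6 months and 8.17 ± 0.29 at 4 months (SD, n = 3 each). The difference between the ages in the response to smoke was 0.90 for Cfb (SE 0.27, unadjusted p = 0.0057) and did not pass over all probes (limma adjusted p = 0.462). For C1qa it was 0.57 (SE 0.22, unadjusted p = 0.0249, limma adjusted p = 0.555), and for C1qb and C1qc 0.37 and 0.40. By limma 0 of the 7 genes passed for this difference and 2 had an unadjusted p below 0.05. Of all genes 0% passed and 8.3% had an unadjusted p below 0.05. Averaged over both ages, the response passed for the 3 C1q genes and Cfb, 4 of 7, against 4.3% of all genes called higher, at 1.18 for C1qa, 1.30 for C1qb, 1.34 for C1qc and 0.89 for Cfb (limma adjusted p between 3.7e-05 and 0.00152).

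C2, the serine protease of the classical C3 convertase, was at 10.33, 10.44 and 10.32 with smoke and 10.49, 10.46 and 10.43 in controls at 4 months, and at 10.53, 10.25 and 10.44 with smoke and 10.39, 10.31 and 10.33 in controls at 6 months. Its values overlapped between the groups at both ages. The change was -0.10 at 4 months (95% interval -0.31 to 0.12, limma adjusted p = 0.679) and 0.07 at 6 months (-0.15 to 0.28, limma adjusted p = 0.821). Both upper bounds lie below the changes of the C1q genes at the same age. The gene of C2 lies next to that of Cfb on chromosome 17.

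C4b, the component that C1 cleaves together with C2, was at 10.75, 10.74 and 10.64 with smoke at 4 months, against 10.99, 10.79 and 10.58 in controls. At 6 months it was at 10.65, 10.18 and 10.56 with smoke, against 10.24, 9.93 and 10.32 in controls. The groups overlapped at both ages. The change was -0.08 at 4 months (95% interval -0.40 to 0.25, limma adjusted p = 0.853) and 0.30 at 6 months (-0.03 to 0.63, limma adjusted p = 0.349). C4b has a near-identical copy in C4a, whose own probe was detected on no array, and whether the C4b probe also binds RNA of the copy was not tested.

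Both receptors of the anaphylatoxins were at the limit of the array. The C3ar1 probe read -8 to 9 raw intensity units on the 12 arrays, where negative values are below the subtracted background, so no level or change is given. The C5ar1 probe was detected on 1 of 3 arrays in each of the 4 groups. It was at 4.73, 4.75 and 5.09 with smoke and 4.99, 4.51 and 4.60 in controls at 4 months, and at 4.91, 4.90 and 4.85 with smoke and 4.81, 5.40 and 4.85 in controls at 6 months. Its change was 0.16 at 4 months (95% interval -0.22 to 0.53, limma adjusted p = 0.711) and -0.13 at 6 months (-0.51 to 0.24, limma adjusted p = 0.789). The offset added in the normalization understates any change of so dim a probe.

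Where 3 arrays lay wholly above the other 3 was also counted. At 4 months this held for the 3 C1q genes of the 7, smoke above control, and for 9.42% of all genes. At 6 months it held for those 3 and Cfb, against 10.7% of all genes.

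In control lungs, 4 of the 7 genes were lower on all 3 arrays at 6 months than on any at 4 months, against 8.65% of all genes. They were Cfb (-0.75, limma adjusted p = 0.112), C4b (-0.62, limma adjusted p = 0.1), C1qa (-0.46, limma adjusted p = 0.182) and C2 (-0.12, limma adjusted p = 0.534). None of the 7 passed in limma, where 0.0569% of all genes did, and 3 had an unadjusted p below 0.05, against 17.8% of all genes. C4b and Cfb passed without control replicate 3 at 4 months (limma adjusted p = 0.0327 and 0.0455), the array whose absence also raised the count over all genes to 577. In smoke-exposed lungs no gene of the 7 passed between the ages either, against 0.019% of all genes, and 0 had an unadjusted p below 0.05, against 10.8% of all genes. Their changes there, 6 minus 4 months, ran between -0.25 (C4b) and 0.28 (C1qb). The 4-month controls enter both the comparison with smoke and the one with age.

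Beyond the 9 genes, 43 others of the pathway were looked up. A named probe was found for 38, and 25 were detected on enough arrays to be tested. The genes detected on too few arrays, 13 in all, included the lectin pathway's Mbl1, Mbl2, Masp1 and Masp2, and C9 of the membrane attack complex. Of the 25, 2 were higher and 23 did not pass at 4 months, when 1.65% of all genes passed in either direction. At 6 months 3 were higher, 1 was lower and 21 did not pass, when 5.08% of all genes passed. Their median change was 0.08 at 4 months and 0.15 at 6 months.

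The receptors held the largest changes of these other genes. Itgb2, the beta chain that complement receptors 3 and 4 share, was at 6.93, 7.03 and 7.19 with smoke, against 6.19, 5.84 and 6.08 in controls at 4 months. At 6 months it was at 7.10, 7.53 and 7.18 with smoke, against 6.23, 6.15 and 6.13 in controls. Its change was 1.01 at 4 months (limma adjusted p = 0.00166) and 1.10 at 6 months (limma adjusted p = 0.000462), with no overlap between the groups at either age. Itgax, the alpha chain of receptor 4, rose by 1.12 at 4 months (limma adjusted p = 0.00237) and by 0.59 at 6 months (limma adjusted p = 0.0488), and the second call was lost under 17 of 23 alternatives (adjusted p up to 0.184). Itgam, the alpha chain of receptor 3, was dim. It was at 0.13 at 4 months without passing, and at 6 months it was detected on 2 smoke arrays and no control array, where no fold is given. Itgb2 and Itgax are also carried by other leukocytes.

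Other receptors did not pass. Vsig4, a receptor for C3 fragments on resident macrophages, was at 0.09 at 4 months and 0.53 at 6 months (limma adjusted p = 0.896 and 0.319). C5ar2, the second C5a receptor and the chromosomal neighbour of C5ar1, was detected on all 3 smoke arrays and 1 control array at 6 months, with a change of 0.33 (limma adjusted p = 0.219). Cd93, a surface protein once described as a C1q receptor, was at -0.35 at 6 months (limma adjusted p = 0.2).

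Among 10 tested regulators 1 was higher and 1 lower, both at 6 months, when 5.08% of all genes passed in either direction. Clu, or clusterin, which blocks assembly of the membrane attack complex, was at 11.85, 11.97 and 11.90 with smoke and 11.47, 11.60 and 11.50 in controls, a change of 0.39 (limma adjusted p = 0.0319) that lost its call under 10 of 23 alternatives (adjusted p up to 0.125). Vtn, or vitronectin, with a like role in plasma and matrix, was at 7.97, 7.48 and 7.82 with smoke and 8.49, 8.58 and 8.27 in controls, a change of -0.69 (limma adjusted p = 0.00852, and 0.0549 from the arrays of that age alone). At 4 months Clu was at 0.03 and Vtn at -0.28, and neither passed. Cd55, which speeds the decay of convertases on cell surfaces, was at 0.44 at 4 months (limma adjusted p = 0.0699) and 0.15 at 6 months. Cfi, the protease that inactivates C3b and C4b, was at 0.42 and 0.48. Cd59b, an inhibitor of the membrane attack complex, was at 0.25 and 0.03 by its brighter probe, while its other probe was detected on no array.

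None of the 3 tested genes of initiation passed, and none of the 5 tested alternative and terminal components did at either single age. C1s1, a protease of the C1 complex, was at 0.54 at 4 months and 0.16 at 6 months by its brighter probe and at 0.31 and 0.34 by its other probe. C1rl, a relative of the protease C1r, was at 0.42 and 0.48, and Fcna, a ficolin of the lectin pathway, at 0.05 and 0.13. C6, of the membrane attack complex, was at 0.22 and 0.36 by its brighter probe (limma adjusted p = 0.395 and 0.0883). By its other probe it was at 0.41 and 0.42 (limma adjusted p = 0.146 and 0.075). Hc, which encodes C5, was at 0.08 and 0.16. C8a, another part of the attack complex, was detected on none of the 6 smoke arrays and 3 of the 6 control arrays, 2 of them at 6 months. It did not pass at that age (limma adjusted p = 0.341), and no fold is given. In limma 2 of the 3 genes of initiation had an unadjusted p below 0.05 at 4 months, as did 14.8% of all genes, and 1 at 6 months, as did 17.4%. Averaged over both ages, 4 of the 25 genes passed upward, against 4.3% of all genes. They were C6 (0.29, limma adjusted p = 0.0433), Cd55 (0.29, limma adjusted p = 0.0371), Itgax and Itgb2, and Vtn passed downward. The other probe of C6 averaged 0.42 (limma adjusted p = 0.0112).

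**Figure D4:**
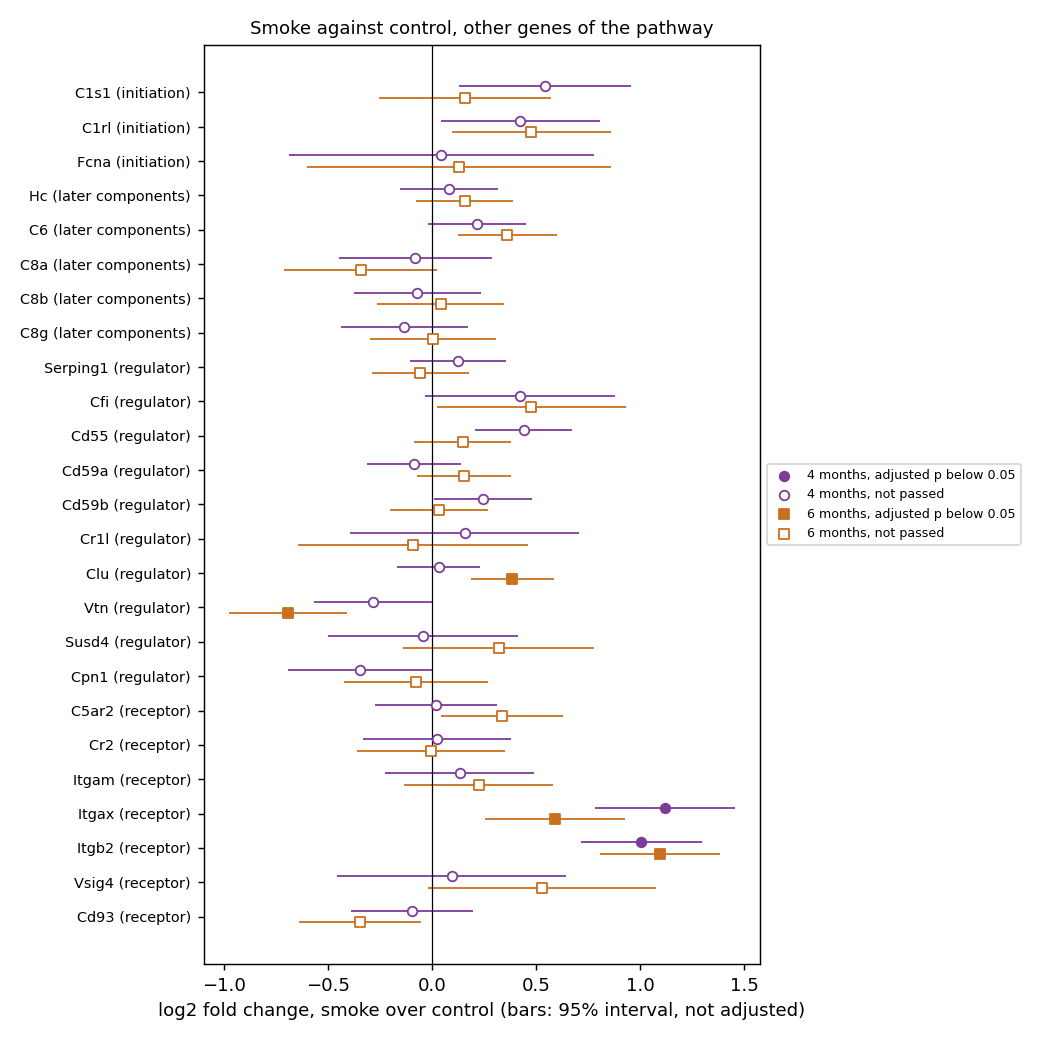
Log2 fold change, smoke over control, of the 25 other tested genes of the pathway at 4 months (circles) and 6 months (squares), grouped by role, with 95% intervals from limma that are not adjusted; filled symbols passed. Itgb2 stands out to the right at both ages and Itgax at 4 months. At 6 months Itgax (0.59), Clu (0.39) and Vtn (-0.69) also passed. A group had no detected array for C8a at both ages, C5ar2 at 4 months and Itgam at 6 months. Those symbols show no measured change.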

How the data were processed

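The arrays measured total RNA of whole lung, 3 arrays in each of 4 groups taken from the sample titles, which call them biological replicates. Per the file headers, the authors deposited a non-normalized probe intensity with a detection p-value for each array. Values below 0 on 18.3 to 21.0% of probes show that background had been subtracted. The deposited second table holds linear intensity with near-equal medians, and its normalization is not given in the sources used here.

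Intensities were corrected with limma 3.58.1 in R 4.3.3 (nec with detection p-values, offset 16), quantile normalized and taken to log2, and the offset understates changes of dim probes. Probes detected (p below 0.05) on at least 3 of 12 arrays were kept, 15490 of 25697. Median raw intensity per array was 18 to 28, and 55.1 to 57.6% of probes were detected. All 12 arrays entered 1 linear model of the 4 group means (lmFit, eBayes, 8 residual and 4.54 prior degrees of freedom), with two-sided p-values adjusted by Benjamini-Hochberg over the kept probes. The brightest kept probe stands for a gene in counts. Names came from the platform annotation, updated through a RefSeq table, with 1719 probes unnamed. The fit was tested on simulated data.

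The genes named are all members and, of the pathway list, those that passed and up to 3 others per role with the smallest p, plus the 5 genes most like C1q. Itgam was named outside this rule, after its values were seen. A likeness to C3 was not computed, since C3 had no named probe. The members and lists were chosen with earlier results of these data known. The alternatives, 23 in all, varied the values used, background, offset, scaling, filter, probe rule, arrays in the fit, weights and replicate block, and left out each array.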

Additional observations from a re-analysis of the deposited data

How the results depend on the processing

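The 4 complement genes called at 6 months and the 4 called for the average over both ages were called under every alternative that gave a value, and so were the 3 at 4 months except where an array was left out, with 0 to 3 called then (0 without smoke replicate 3, 2 without smoke replicate 1 or control replicate 2). The number of calls for the difference between the ages and for age in smoke-exposed lungs was 0 under every alternative run. For age in control lungs 1 gene, C4b, was called with array weights and 0 to 2 with an array left out. Of the other pathway genes, 4 were called at 4 months with array weights and 2 to 4 with an array left out, against 2 with all arrays. At 6 months 2 were called with scaling to equal medians, 2 with the replicate block, 1 from the arrays of that age alone and 2 to 3 with an array left out, against 4. The causes were not tested. No called value changed its direction. Over all genes, 174 were called at 4 months, 648 with array weights and 87 to 372 with an array left out, and 535 at 6 months, 773 with array weights and 273 to 594 with an array left out. Between the ages 6 were called in control lungs and 2 in smoke-exposed lungs, 175 and 372 with array weights.

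Same-numbered smoke and control arrays of an age had deviations from their group means that correlated at -0.13 to 0.25 over the kept probes, and not every array correlated best with its own number, so the numbers were not taken as pairs. With the replicate block the count of complement genes called was 3 at 4 months and 4 at 6 months, 4 for the average and 0 for the difference. The block cannot give the comparisons of age. The depth of the arrays limits the dim probes: C3ar1 could not be measured, and changes of C5ar1, C5ar2, C8a and Itgam are near background.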

Other observations

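Of genes that share C1q's name but not its place in the cascade, none passed as higher with smoke. The list was drawn up after the values of C1q were seen and holds the tested genes whose symbols begin with C1qtnf, C1ql or C1qbp, 9 of 13 such symbols with a probe. At 4 months none of the 9 passed in limma, 1 had an unadjusted p below 0.05 (14.8% of all genes did), and their changes, smoke minus control, lay between -0.40 (C1qtnf2) and 0.25 (C1qbp) with a median of -0.13. At 6 months 1 was lower and 8 did not pass, when 5.08% of all genes passed in either direction, with a median of -0.14 and a range of -0.49 to 0.20. The lower gene was C1qtnf2, one of the secreted C1q and TNF related proteins, at -0.49 (SE 0.12, limma adjusted p = 0.0309).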
